A study of Rattus norvegicus with 8 samples.

Results

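The CXC chemokines described here are *Cxcl1*, *Cxcl2*, *Cxcl9*, *Cxcl10* and *Cxcl16*, 5 of the 14217 genes with a probe set of their own on the arrays. They were taken by symbol, as every probe set annotated to exactly 1 of these names, which gave 6 of 31042 probe sets, 2 of them for *Cxcl9*. All 5 genes were found, and none was removed by a filter. *Cxcl1* and *Cxcl2* formed the neutrophil-attracting members and *Cxcl9* and *Cxcl10* the interferon-inducible members, with *Cxcl16* apart from both.

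The study asked whether plasma of adult rats that met intermittent hypoxia (IH) as newborns changes gene expression in healthy reporter cells. The reporter cells were mononuclear cells of peripheral blood (PBMCs), that is lymphocytes and monocytes, from 2 healthy male Brown Norway rats of about 180 days, named BN1 and BN2. Cells of each donor were cultured for 6 h, 500000 to a well, in medium with 20% plasma, and each of the 8 cultures was measured on its own array. The 4 plasmas, with 2 arrays each, were the following. Autologous plasma was the Brown Norway reporter donors' own. Control plasma was a single pool from 8 male Sprague-Dawley rats kept in normoxia (21% O2) as newborns. The 5% IH plasma was a single pool from 5 male Sprague-Dawley rats exposed on postnatal days 2 to 6 to short cycles of 5% O2 spread over 1 h of each day, and the 10% IH plasma a single pool from 3 rats exposed in that way to 10% O2. All Sprague-Dawley plasma was drawn at PD114, in adult life, so it differs from autologous plasma in strain, age and donor as well as in exposure, and these cannot be told apart. Because each plasma was pooled once, a spread between arrays is the spread between 2 reporter donors and leaves out the spread between plasma donors, and p-values measure only the former. The labels of the autologous arrays do not settle which donor's plasma was on which cells, since 1 field of the second array names BN1 plasma and another names BN2. Array medians ran from 5.53 to 5.56 on the log2 scale. The T cell marker *Cd3e* was high on all arrays (10.22 to 10.40 by its brighter probe set). The levels of monocyte markers depended on the plasma, as given with the results below.

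Chemokines of the CXC family are small secreted proteins that guide leukocytes through receptors of the CXCR family. Members with the motif glutamate-leucine-arginine before their first cysteines, CXCL1 and CXCL2 among them, act through CXCR2 and draw neutrophils, and monocytes make them within hours of an inflammatory stimulus such as interleukin-1. CXCL9 and CXCL10 lack that motif, are induced by interferons and act through CXCR3 on activated T cells and NK cells. In human and mouse, CXCL16 is made as a membrane protein of monocytes and macrophages that binds CXCR6 and can be shed by the proteases ADAM10 and ADAM17.

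By the RefSeq annotation of the rat build GRCr8, *Cxcl1* (chr14:17477542-17479321, minus strand) and *Cxcl2* (chr14:17465210-17467255, minus strand) are neighbours, *Cxcl10* (chr14:15989066-15991263, plus strand) and *Cxcl9* (chr14:16007166-16012077, plus strand) lie elsewhere on the same chromosome, and *Cxcl16* (chr10:55665355-55669950, minus strand) lies on another. The 250 bases before the RefSeq start of 3 of them are shown, since these hold a match to a motif of the transcription factors that act downstream of interleukin-1 or interferon. The motifs searched on both strands were GGG, any 3 bases and TTCC for NF-kB and GAAA, any 2 bases and GAAA for the interferon-stimulated response element, and capitals mark the matches. The motifs were chosen after the promoters had been seen.
Cxcl1 promoter (chr14:17479322-17479571, minus strand): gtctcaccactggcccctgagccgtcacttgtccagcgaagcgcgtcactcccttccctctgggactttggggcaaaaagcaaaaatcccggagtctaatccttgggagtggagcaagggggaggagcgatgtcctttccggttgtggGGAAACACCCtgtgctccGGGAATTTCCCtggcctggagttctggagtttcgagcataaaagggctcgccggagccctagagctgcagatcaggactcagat
Cxcl2 promoter (chr14:17467256-17467505, minus strand): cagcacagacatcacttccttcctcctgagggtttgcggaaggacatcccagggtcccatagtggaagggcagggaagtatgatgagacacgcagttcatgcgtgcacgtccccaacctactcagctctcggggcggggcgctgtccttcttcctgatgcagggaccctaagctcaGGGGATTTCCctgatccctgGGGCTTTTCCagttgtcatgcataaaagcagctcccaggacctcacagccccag
Cxcl10 promoter (chr14:15988816-15989065, plus strand): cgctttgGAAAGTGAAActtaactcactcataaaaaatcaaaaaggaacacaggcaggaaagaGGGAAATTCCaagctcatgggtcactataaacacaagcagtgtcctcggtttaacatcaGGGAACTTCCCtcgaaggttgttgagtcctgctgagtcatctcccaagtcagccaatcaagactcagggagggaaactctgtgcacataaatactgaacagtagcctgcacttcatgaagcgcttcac

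The *Cxcl1* window held the NF-kB letters from 84 to 75 bases before the start, with an overlapping match on the other strand from 83 to 74, and a further match on that strand from 102 to 93. The *Cxcl2* window held them from 74 to 65 and from 54 to 45 bases before the start. In the *Cxcl10* window they stood from 187 to 178 and from 128 to 119, the latter overlapping a match on the other strand from 127 to 118, and the interferon element stood from 243 to 234. The *Cxcl9* and *Cxcl16* windows held neither set of letters. Of 33469 rat promoters of this length, 4.53% held the NF-kB letters and 3.41% the interferon letters. A match to letters is a description of the sequence and was not tested as a binding site. The NF-kB letters thus stood before members of both classes.

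Levels are given on the log2 scale of the deposited values, on which 1 unit is a doubling, and a log2 ratio is the difference between 2 group means. The study's criterion was met by a probe set whose Rank Product p, a 1-sided permutation p for a high or low rank of the ratios between arrays, was under 0.05 and whose absolute log2 ratio was over 0.263 (1.2-fold). It passed limma when the p adjusted over all probe sets by Benjamini-Hochberg was under 0.05. With 2 arrays against 2, an exact permutation test of a single gene cannot go below p = 0.333. Groups without overlap have this p, so overlap is given throughout as a description only. The share of all probe sets without overlap was not counted. Levels of different genes come from different probes and are not set against each other.

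*Cxcl1*, known in the rat as cytokine-induced neutrophil chemoattractant, had the same order of plasmas in both donors, with autologous lowest and then control, 10% IH and 5% IH. Its levels were 3.14 (BN1) and 3.74 (BN2) with autologous plasma, 4.94 and 4.83 with control, 6.18 and 6.22 with 5% IH and 5.54 and 5.72 with 10% IH. No group overlapped its neighbour. The standard deviations ranged from 0.0286 with 5% IH to 0.422 with autologous plasma (n = 2 arrays each). The mean of *Cxcl1* over the arrays stood at percentile 42.7 of all probe sets.

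*Cxcl2*, which acts on neutrophils through the same receptor, had levels of 3.43 and 3.91 with autologous plasma, 7.25 and 7.67 with control, 8.18 and 8.63 with 5% IH and 7.77 and 8.21 with 10% IH. The order of the group means was that of *Cxcl1*, but the ranges with 5% and 10% IH overlapped. By the donor numbers in the array titles, cells of BN2 were above those of BN1 with every plasma. The standard deviation lay between 0.300 and 0.334 in each group (n = 2).

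*Cxcl16* had levels of 5.44 and 4.95 with autologous plasma, 7.78 and 8.03 with control, 8.30 and 8.54 with 5% IH and 7.99 and 7.94 with 10% IH. Both 10% IH arrays lay between the control arrays, so control and 10% IH did not differ beyond their spread. The 5% IH arrays lay above all others.

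The interferon-inducible members were low with every plasma. *Cxcl10*, which draws activated T cells, had levels of 3.47 and 3.89 with autologous plasma, 3.38 and 3.94 with control, 3.72 and 3.81 with 5% IH and 3.79 and 4.26 with 10% IH. All 4 groups overlapped at least 1 other, and the mean stood at percentile 22.5. The brighter *Cxcl9* probe set had levels of 3.44 and 3.23 with autologous plasma, 3.22 and 3.01 with control, 3.10 and 3.31 with 5% IH and 3.11 and 3.26 with 10% IH, at percentile 13.3. The dimmer one lay between 2.81 and 3.24 on all arrays, at percentile 10.5. The values carry no detection calls, so a low level is not shown to be a transcript above background.

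**Figure D1:**
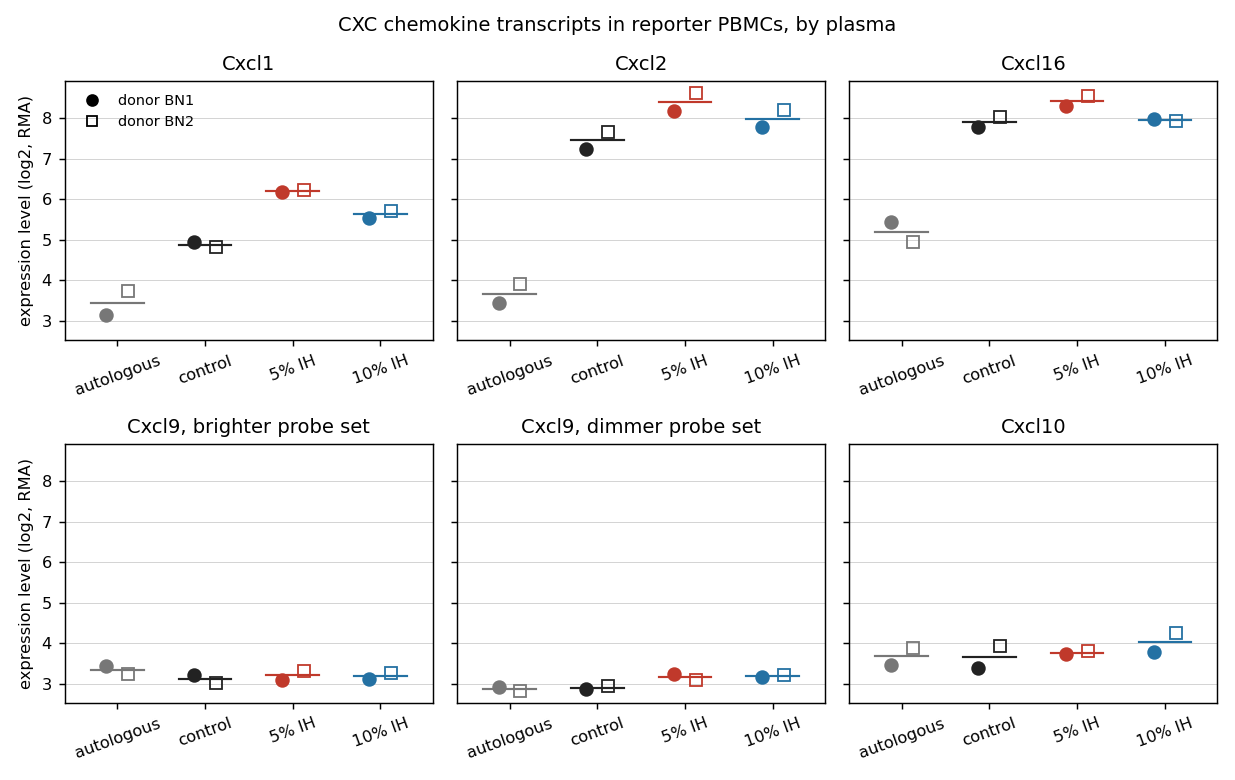
Expression level (log2) of each CXC chemokine probe set on the 8 arrays, by plasma, with donor BN1 as filled circles, BN2 as open squares and group means as bars. The panels share the same vertical range. *Cxcl1*, *Cxcl2* and *Cxcl16* were lowest on the autologous arrays and highest with 5% IH, whereas *Cxcl10* overlapped between plasmas, the brighter *Cxcl9* probe set overlapped between control and both IH plasmas, and the dimmer one was higher with both IH plasmas (3.08 to 3.24) than with the others (2.81 to 2.93).

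With 5% IH plasma, the neutrophil-attracting members and *Cxcl16* met the criterion as higher than with control plasma, and the interferon-inducible members did not by their brightest probe sets. *Cxcl1* was 2.50-fold higher (log2 ratio 1.32, 95% confidence interval 0.93 to 1.71), *Cxcl2* 1.92-fold (0.94, 0.43 to 1.46) and *Cxcl16* 1.43-fold (0.52, 0.14 to 0.89). These 3 of 5 members met the criterion, beside 1.58% of all probe sets that met it as higher. Their groups did not overlap, a description only, since the share of all probe sets without overlap was not counted. *Cxcl1* had the second-highest log2 ratio of all probe sets, *Cxcl2* rank 7 and *Cxcl16* rank 30. The difference was alike in both donors, at 0.93 and 0.96 for *Cxcl2* and 0.52 and 0.51 for *Cxcl16*.

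*Cxcl10* had a log2 ratio of 0.11 (95% confidence interval -0.38 to 0.60), with 0.34 in BN1 and -0.12 in BN2, and did not meet the criterion. Without the BN2 control array its value was 0.39 and met it. The brighter *Cxcl9* probe set had 0.09 (-0.19 to 0.37). The dimmer one stood at 0.26 and met the criterion by a narrow margin, which it no longer did without the BN1 array of control (0.23) or of 5% IH (0.19), so the probe sets of this gene disagree. The median log2 ratio was 1.13 over the neutrophil-attracting members and 0.10 over the brightest probe sets of the interferon-inducible members.

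By limma, 0 of 31042 probe sets passed in 5% IH against control, although 2.54% had an unadjusted p under 0.05. The adjusted p was 0.545 for *Cxcl1* and 1 for each other member. With the autologous arrays left out of the fit, a setting chosen after seeing the data, the adjusted p of *Cxcl1* was 0.0278 (range over all alternatives 0.0278 to 1). In that setting 1 of 5 members passed, beside 2 of 31042 probe sets (0.00644%).

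With 10% IH plasma, *Cxcl1* was 1.68-fold higher than with control (log2 ratio 0.75, 95% confidence interval 0.36 to 1.14) and *Cxcl2* 1.45-fold (0.54, 0.02 to 1.06), whereas *Cxcl16* was at 1.04-fold (0.06, -0.31 to 0.44). *Cxcl10* was 1.29-fold higher (0.36, -0.13 to 0.85), with 0.40 in BN1 and 0.32 in BN2, although its groups overlapped because BN2 cells had higher levels than BN1 cells with both plasmas. *Cxcl1*, *Cxcl2* and *Cxcl10*, 3 of 5 members, met the criterion, beside 3.58% of all probe sets that met it as higher. *Cxcl16* did not meet it, with 0.21 in BN1 and -0.09 in BN2. The brighter *Cxcl9* probe set had a log2 ratio of 0.07 (-0.21 to 0.35), and the dimmer one met the criterion at 0.28, but no longer when the control array of BN1 (0.25) or the 10% IH array of BN2 (0.26) was left out.

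Single arrays decided part of this count. With the BN2 array of 10% IH left out, *Cxcl2* (0.32) and *Cxcl10* (0.13) no longer met the criterion and *Cxcl1* alone was left, and without the BN1 control array *Cxcl2* stood at 0.32 and still met it whereas *Cxcl10* stood at 0.09 and did not. *Cxcl10* was at 0.64 without the BN2 control array and at 0.60 without the BN1 array of 10% IH. By limma, 0 of 31042 probe sets passed, 5.19% had an unadjusted p under 0.05, and the adjusted p was 0.92 for *Cxcl1*, *Cxcl2* and *Cxcl10* and 0.983 for *Cxcl16*.

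**Figure D2:**
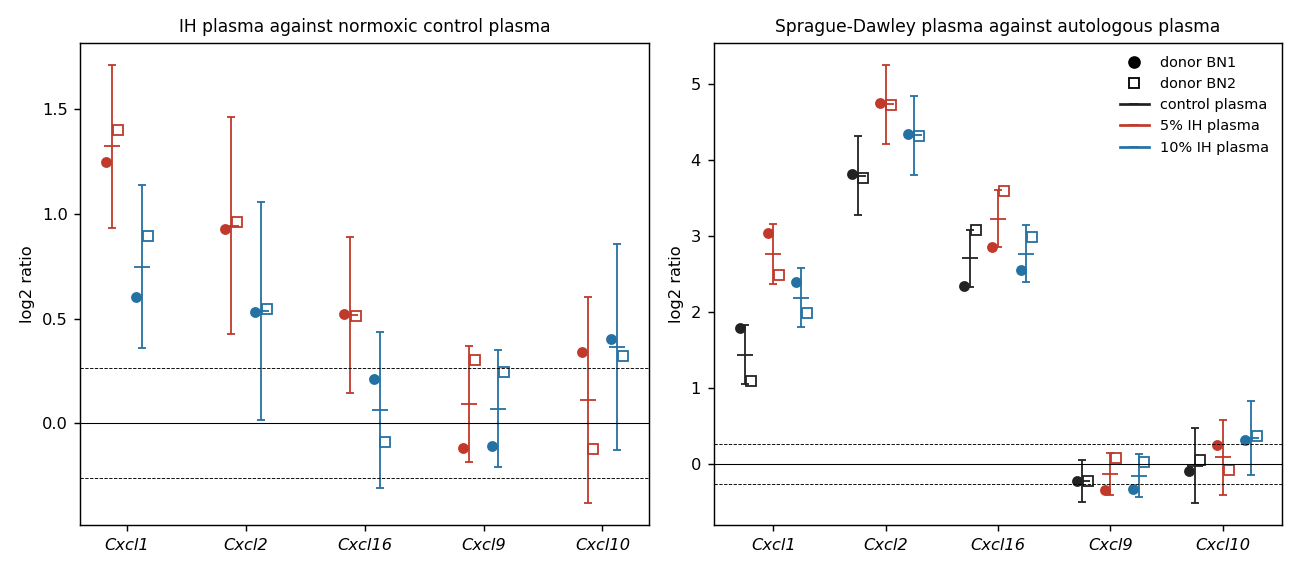
Log2 ratios of the 5 CXC chemokines (brightest probe set), against control plasma (left) and against autologous plasma (right), with limma means and 95% confidence intervals as bars, donor BN1 as filled circles and BN2 as open squares. Dashed lines mark a log2 ratio of 0.263 in either direction. Against control, *Cxcl1* had the highest mean with both IH plasmas, 1.32 and 0.75, and against autologous plasma *Cxcl2* did, up to 4.73. The panels have different vertical ranges, and ratios within a panel share their reference arrays. Donor numbers are those of the array titles, which other labels of the autologous arrays do not settle.

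Set directly against each other, the IH plasmas gave higher levels of the neutrophil-attracting members and *Cxcl16* with 5% IH. With that plasma, *Cxcl1* was 1.49-fold higher than with 10% IH (log2 ratio 0.57, 95% confidence interval 0.18 to 0.96) and *Cxcl16* 1.37-fold (0.46, 0.08 to 0.83), both without overlap between groups. *Cxcl2* was 1.33-fold higher (0.41, -0.11 to 0.93), with 0.40 and 0.42 in the donors, but its groups overlapped, and leaving out the BN2 array of 5% IH (0.18) or the BN1 array of 10% IH (0.19) took it out of the criterion. It was 0.64 and 0.63 without the other 2 arrays. These 3 of 5 members met the criterion, beside 3.28% of all probe sets that met it as higher with 5% IH.

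The log2 ratio of *Cxcl10* was -0.25 (-0.74 to 0.24) and that of *Cxcl9* 0.02 (-0.26 to 0.30), and neither met the criterion. *Cxcl10* met it as lower with 5% IH once the 5% IH array of BN2 (-0.30) or the 10% IH array of BN1 (-0.49) was left out. By limma, 0 of 31042 probe sets passed, 4.68% had an unadjusted p under 0.05, and the adjusted p was 0.981 for *Cxcl1*, *Cxcl2*, *Cxcl10* and *Cxcl16*.

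Against autologous plasma, *Cxcl1*, *Cxcl2* and *Cxcl16* rose with all 3 Sprague-Dawley plasmas. With control plasma, which carries no IH, *Cxcl2* rose 13.8-fold (log2 ratio 3.79, 95% confidence interval 3.27 to 4.31, limma adjusted p = 4.74e-05), *Cxcl16* 6.53-fold (2.71, 2.33 to 3.08, adjusted p = 4.91e-05) and *Cxcl1* 2.71-fold (1.44, 1.05 to 1.83, adjusted p = 0.0027). These 3 of 5 members passed limma, beside 1.48% of all probe sets that passed as higher. With autologous plasma, *Cxcl1* (3.14 and 3.74) and *Cxcl2* (3.43 and 3.91) were low, and no detection calls show these levels to be above background. The size of their folds over autologous plasma, here and below, is therefore uncertain. With arrays paired by the donor numbers in their titles, the donors were close for *Cxcl2* (3.81 and 3.76). They were further apart for *Cxcl1* (1.79 and 1.09) and *Cxcl16* (2.34 and 3.08). Other labels of the autologous arrays do not settle this pairing, so these values for single donors are not certain.

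*Cxcl9* and *Cxcl10* did not pass. The log2 ratio of *Cxcl10* with control against autologous plasma was -0.02 (-0.51 to 0.47). That of the brighter *Cxcl9* probe set was -0.22 (-0.50 to 0.06, limma adjusted p = 0.643), and -0.22 in each donor by the numbers in the array titles. Its groups did not overlap, but it met the criterion only without the BN1 control array (-0.32).

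With 5% IH plasma, the fold over autologous was 26.6 for *Cxcl2*, 9.35 for *Cxcl16* and 6.79 for *Cxcl1* (limma adjusted p = 1.03e-05, 1.31e-05 and 4.02e-05), and 3 of 5 members passed, beside 1.71% of all probe sets. With 10% IH plasma it was 20.0 for *Cxcl2*, 6.81 for *Cxcl16* and 4.56 for *Cxcl1* (2.31e-05, 4.26e-05 and 0.000221), and 3 of 5 passed, beside 1.2% of all probe sets. Leaving out any 1 array left the same 3 members past the limma threshold in these comparisons. *Cxcl10* with 10% IH was at 0.34 and met the criterion (beside 5.14% of all probe sets as higher), though not when the BN1 autologous array (0.14) or the 10% IH array of BN2 (0.11) was left out, and its limma adjusted p was 0.685. The 3 comparisons share the autologous arrays, so their values are given side by side and are not independent.

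The step from autologous to control plasma and the step from control to IH plasma thus had different orders among the members. Both steps use the same control arrays with opposite sign. A low control value makes the first step smaller and the second larger, so the steps are not independent. *Cxcl2* had the larger first step, 3.79 against 1.44 for *Cxcl1*, both from low autologous levels without detection calls. With 5% IH, *Cxcl1* had the larger second step, 1.32 against 0.94. The confidence intervals of the second step overlap, and this difference was not tested.

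By their brightest probe sets, the other CXC ligands measured did not meet the criterion with either IH plasma against control. Of the neutrophil-attracting and platelet ligands outside the 5 members, 4 of 5 listed were measured, and 0 of 4 met the criterion in these 2 comparisons. Against autologous plasma, *Cxcl3* met it as higher with control (0.29) and 10% IH (0.39) and *Ppbp* as lower with 5% IH (-0.35). None of these passed limma or met the criterion with every array left out in turn, at 0.20 and 0.30 for *Cxcl3* without the BN2 autologous array, 0.21 without the BN2 control array, and -0.30 and -0.20 for *Ppbp* without the BN1 autologous or the BN2 array of 5% IH. *Cxcl3*, a neutrophil-attracting ligand on the same chromosome as *Cxcl1* and *Cxcl2*, had log2 ratios between -0.18 and 0.16 over its 5 probe sets with 5% IH. Its brightest probe set lay at 5.77 to 6.28 on all arrays. The *Cxcl3* probe sets disagree between autologous and 5% IH plasma, with means of 5.85 and 5.99 for the brightest. From brighter to dimmer, the others averaged 5.72 and 6.07, 5.14 and 5.50, 4.33 and 4.28, and 2.14 and 2.20. The platelet chemokines *Pf4* and *Ppbp*, which platelets store in their granules, lay at 12.41 to 12.75 and 8.39 to 8.94. *Cxcl5* has no probe set of that symbol, which RefSeq lists as a synonym of *Cxcl6*.

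Of the ligands without the neutrophil-attracting motif, *Cxcl11*, *Cxcl12*, *Cxcl13* and *Cxcl14* were measured, 4 of 5 listed, and 0 of 4 met the criterion in any of the 6 comparisons. *Cxcl11*, which is induced by interferon as *Cxcl9* and *Cxcl10* are, lay at 2.96 to 3.47. The ratios of these 4 genes to control ran from -0.08 to 0.02 with 5% IH and from -0.06 to 0.15 with 10% IH.

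**Figure D3:**
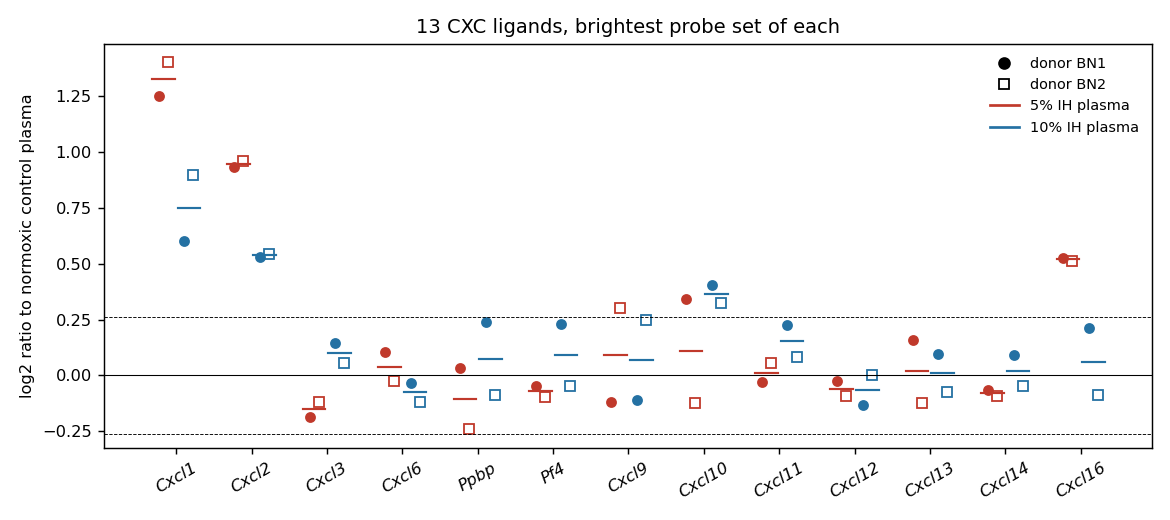
Log2 ratio to control plasma of all measured CXC ligands (brightest probe set), with 5% IH in red and 10% IH in blue, donor BN1 as filled circles, BN2 as open squares and bars at the mean. Dashed lines mark 0.263 in either direction. Means above the upper line were those of *Cxcl1* and *Cxcl2* with both plasmas, *Cxcl16* with 5% IH and *Cxcl10* with 10% IH.

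Of the receptors of these ligands, 7 of 8 listed were measured, without *Cxcr6*, the receptor of CXCL16. *Cxcr2*, the receptor of CXCL1 and CXCL2 that neutrophils carry, lay at 3.67 to 4.13 on all arrays. *Cxcr3*, the receptor of CXCL9 and CXCL10 on activated T cells and NK cells, lay at 7.01 to 7.34. Neither met the criterion in any comparison. The scavenger receptor *Ackr3* alone met it, at a log2 ratio of 0.36 with 5% IH against control (limma adjusted p = 1), and as lower with control (-0.49, adjusted p = 0.196) and 10% IH (-0.30, 0.546) against autologous plasma. The last value was -0.18 without the BN2 autologous array and -0.13 without the BN1 array of 10% IH, which did not meet it, and -0.47 without the BN2 array of 10% IH. Its group means were 2.91 with autologous plasma, 2.43 with control, 2.78 with 5% IH and 2.62 with 10% IH, at percentile 5.78 of all probe sets. Of the proteases that shed CXCL16 in human and mouse, *Adam10* met the criterion with 10% IH at 0.42, with 0.78 in BN1 and 0.06 in BN2, and at 0.08 without the BN1 array of 10% IH it did not (0.75 without the BN2 array). *Adam17* did not meet it.

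The interleukin-1 and NF-kB genes, of which 20 of 22 listed were measured, held the cytokines that induce *Cxcl1* and *Cxcl2* and the mediators in between. By their brightest probe sets, 5 of 20 met the criterion as higher with 5% IH against control, beside 1.58% of all probe sets. None met it as lower, and none passed limma. The 5 were led by *Il1a* (1.22), *Il1b* (0.98), *Tnf* (0.44) and *Il1rap*, the co-receptor of interleukin-1 (0.35). For *Csf2*, another listed gene, the dimmer probe set met the criterion at 0.40, whereas the brighter one stood at -0.07. The median over the 20 was 0.06, beside 0.00 over all probe sets. *Il1b* had levels of 5.21 and 5.47 with autologous plasma, 9.06 and 9.23 with control, 10.08 and 10.18 with 5% IH and 9.63 and 9.28 with 10% IH. Its groups did not overlap, in the order of plasmas that *Cxcl1* had. The brighter probe set of *Il1a* had group means in the same order (4.35, 5.13, 5.19 and 6.35), but read 5.02 and 5.24 with control and 5.29 and 5.09 with 10% IH, which overlap as in *Cxcl16*. Its dimmer probe set read 3.21 and 3.23 with control and 3.97 and 3.66 with 10% IH, and this log2 ratio of 0.59 met the criterion, so the probe sets disagree.

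With 10% IH against control, *Il1b* met the criterion at 0.31 (0.57 in BN1 and 0.05 in BN2), and *Il6* as lower at -0.30 (-0.68 and 0.09). Neither did without the BN1 control array (0.23 and -0.02) or the BN1 array of 10% IH (0.14 and -0.19), and the values were 0.49 for *Il1b* without the BN2 array of 10% IH and -0.57 for *Il6* without the BN2 control array. With control against autologous plasma, 9 of 20 met the criterion as higher, beside 5.33% of all probe sets, and 4 rose by limma. These were *Il1b* (3.81, adjusted p = 4.29e-06), *Tnf* (1.14, 0.00216), *Nfkbiz*, an NF-kB cofactor (0.84, 0.0013), and *Il1rap* (0.67, 0.0116). *Il1rap* did not pass without the BN1 autologous array (adjusted p = 0.0674), the BN1 control array (0.106) or the BN2 control array (0.108).

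Of the interferon genes, which hold the interferons, their receptors and the genes they induce, 23 of 25 listed were measured. With 5% IH against control, 2 of 23 met the criterion as higher, beside 1.58% of all probe sets. These were *Mx2*, an antiviral GTPase (0.32), and *Ifit2* (0.28, with -0.05 in BN1 and 0.60 in BN2). *Mx2* did not without the BN2 array of control (0.24) or of 5% IH (0.25), and *Ifit2* did not without the same arrays (0.16 and 0.07) and stood at 0.49 without the BN1 array of 5% IH. These counts rest on the brightest probe sets. The dimmer *Ifit2* probe set read 5.44 and 5.52 with control and 5.73 and 6.04 with 5% IH, higher in both donors. The dimmer *Mx2* probe set averaged 2.73 with control and 2.72 with 5% IH. With 10% IH, 2 of 23 met the criterion as higher, beside 3.58% of all probe sets. These were *Socs1*, an inhibitor of cytokine signalling (0.38), and *Ifngr1*, a chain of the interferon-gamma receptor (0.31). Without the BN1 array of 10% IH they stood at 0.13 and 0.18 and did not meet it, nor did *Socs1* without the BN2 control array (0.24) or *Ifngr1* without the BN1 control array (0.26), whereas *Socs1* stood at 0.64 without the BN2 array of 10% IH.

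None of the interferon genes passed limma in these comparisons, and the median ratio was 0.05 with 5% IH and 0.01 with 10% IH. The interferons themselves were low, *Ifng* at 2.36 to 2.63 and *Ifnb1* at 4.32 to 4.67 on all arrays. With control against autologous plasma, 8 of 23 met the criterion as higher, beside 5.33% of all probe sets, and 1 as lower, and only *Ifngr2*, the other chain of the receptor, rose by limma (0.70, adjusted p = 0.00457, and 0.0648 when the BN2 control array was left out).

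With 5% IH against autologous plasma, 5 of 23 interferon genes rose by limma, beside 1.71% of all probe sets. These were *Ifit2* (1.05, adjusted p = 0.0159), *Ifngr2* (0.77, 0.002), *Usp18*, an inhibitor of interferon signalling (0.76, 0.0101), *Mx2* (0.52, 0.0423) and *Gbp2*, a guanylate-binding protein (0.47, 0.0461). Of these, *Mx2* and *Gbp2* did not pass with any 1 of the 4 arrays left out, nor with donor as a block (0.0717 and 0.0643). *Ifit2* did not pass without the BN2 autologous array (0.116) or the BN2 array of 5% IH (0.131), and *Usp18* did not without the BN1 (0.0664) or BN2 (0.0631) autologous array or the BN1 array of 5% IH (0.0953). With 10% IH, 1 of 23 rose, *Ifngr2* (0.74, 0.00341), beside 1.2% of all probe sets. In the same 2 comparisons, 5 and 4 of the 20 interleukin-1 and NF-kB genes rose.

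Markers of monocytes moved with the same members. With control against autologous plasma, 7 of 8 monocyte markers met the criterion as higher, beside 5.33% of all probe sets, and 6 rose by limma, beside 1.48%. They were led by *Cd14*, the lipopolysaccharide co-receptor (5.28, adjusted p = 8.55e-07), and *Csf1r*, the receptor of macrophage colony-stimulating factor (2.89, 0.000414). Of these 6, *Cd68* did not pass when the BN2 control array was left out (adjusted p = 0.0841). The median ratio of the 8 was 1.92. The remaining marker, *Cd163*, lay at 2.69 to 3.15 on all arrays. Summed on a linear scale, the 8 markers gave 653 to 938 with autologous plasma, 3826 to 4462 with control, 4512 to 5258 with 5% IH and 4355 to 4547 with 10% IH. In bulk RNA, fewer cells of a type and less RNA per cell cannot be told apart, and the part of monocyte number in the chemokine levels was not tested.

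With 5% IH against control, 4 of 8 monocyte markers met the criterion as higher, beside 1.58% of all probe sets, and none passed limma. *Adgre1*, a macrophage receptor, was at 0.54 and *Cd14* at 0.40, with no overlap between groups. *Itgam* (0.28) and *Fcgr2b* (0.27) met it by a narrow margin, and did not when the control array of BN1 (0.16 and 0.21) or the 5% IH array of BN2 (0.10 and 0.19) was left out. *Itgam* stood at 0.46 without the BN1 array of 5% IH. The summed level of all 8 did not overlap between these groups, and the median ratio was 0.20. With 10% IH 0 of 8 met the criterion, at a median of 0.03, whereas *Cxcl1* and *Cxcl2* met it.

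**Figure D4:**
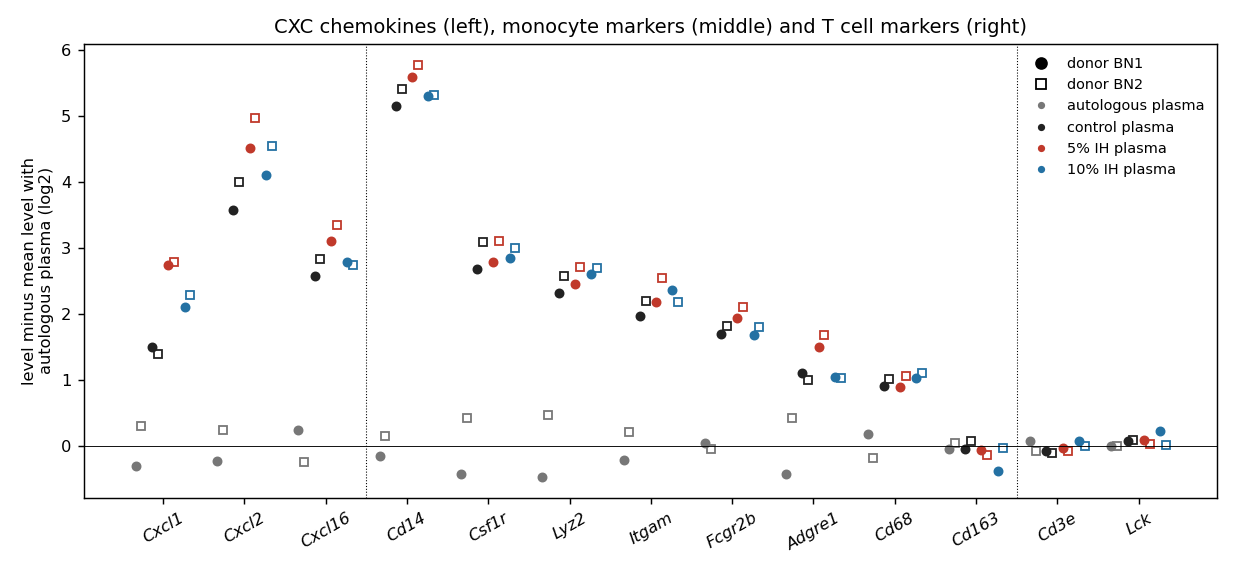
Level on each array minus the mean with autologous plasma (log2) for 3 CXC chemokines (left), the 8 monocyte markers (middle) and 2 T cell markers (right), with colour for plasma, filled circles for donor BN1 and open squares for BN2. Each gene is drawn by its brightest probe set. *Cd14* and most monocyte markers stood above autologous plasma with each Sprague-Dawley plasma, as the chemokines did, whereas *Cd163* and the T cell markers stayed near 0.

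Markers of neutrophils, T cells, B cells, NK cells and platelets are given for comparison. Of 6 measured neutrophil markers, 0 met the criterion with either IH plasma against control, and their summed linear level was 135 to 201 with autologous plasma, 194 to 211 with control, 201 to 206 with 5% IH and 170 to 223 with 10% IH, without *Mpo* and *Elane*, which were not measured. Control against autologous plasma had 3 of 6 as higher by the criterion, beside 5.33% of all probe sets, at a median ratio of 0.29. Of these, *S100a8* (0.34) stood at -0.19 without the BN1 autologous array and *Camp* (0.33) at 0.18 without the BN2 autologous array. With control against autologous plasma *Csf3r*, the receptor of granulocyte colony-stimulating factor, rose (0.87, limma adjusted p = 0.0195), but did not pass when the autologous array of BN1 (0.081) or BN2 (0.121) or the control array of BN2 (0.133) was left out. By their brightest probe sets, none of 7 T cell markers met the criterion in any comparison. The dimmer *Cd3e* probe set was less even, with means of 9.25 with autologous plasma, 8.64 with control, 8.73 with 5% IH and 9.05 with 10% IH. Of 4 measured B cell markers, at a median of 0.22, 1 rose by limma with control against autologous plasma, beside 1.48% of all probe sets. This was *Blk* (means 7.59 and 6.82, limma adjusted p = 0.0224). It did not pass without the BN2 autologous array or either control array. Of 6 NK cell and 6 platelet markers measured, none passed limma there, at medians of -0.06 and -0.15.

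Over the 8 arrays, the levels of *Cxcl1* and *Cxcl2* had a Pearson r of 0.951, *Cxcl2* and *Cxcl16* 0.982, *Cxcl1* and *Cxcl10* 0.354 and *Cxcl9* and *Cxcl10* -0.265. The arrays share donors and plasma pools, and the first values rest largely on the distance between the autologous arrays and the rest. Among 8724 genes with a mean above the median of all probe sets, those most like *Cxcl1* were *Slc2a1*, a glucose transporter (0.976), *Sod2*, the mitochondrial superoxide dismutase (0.963), *Cd44*, a hyaluronan receptor (0.962), *Dnajc3*, a chaperone of the endoplasmic reticulum (0.962), and *Nadk*, which makes NADP (0.958). *Slc2a1* averaged 7.13 with autologous plasma, 7.55 with control, 7.75 with 5% IH and 7.65 with 10% IH. Those most like *Cxcl10* were *Baz2a* (0.943), *Igf2r* (0.931), *Fcsk* (0.913), *Ankmy2* (0.904) and *Clstn1* (0.896), whose levels ranged over only 0.16 to 0.32 across the arrays.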

How the data were processed

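Expression in reporter PBMCs was measured on 8 Affymetrix rat arrays. The authors made the deposited log2 values in Expression Console by Robust Multichip Analysis (RMA). This method removes background, gives all arrays 1 distribution by quantiles, so that a shift common to all probe sets is lost, and combines the probes of a probe set. Partek is named in the submitters' notes too, without version. The 31042 probe sets had no missing value. Of these, 20826 have 1 gene symbol in the platform annotation, 436 several and 9780 none. The number of arrays limits the precision.

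Arrays were grouped by plasma. The number of an array is the reporter donor in its title, and the same number was taken to mean the same animal. For the autologous arrays other labels do not settle this. Deviations from group means correlated between same-numbered arrays at 0.240 (control and 5% IH), 0.059 (control and 10% IH) and 0.165 (5% and 10% IH), but at -0.00387, -0.0833 and -0.171 for autologous with control, 5% IH and 10% IH. The study's methods use no donor term, and none entered the main fits.

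The Rank Product was rewritten in Python 3.11.15 (numpy 2.4.6), since the package of the study was not at hand, over all 4 ratios between arrays with 100 permutations of values within arrays. Against control it called as many probe sets as the study with 5% IH, but more with 10% IH. The study states that several genes, *Cxcl1*, *Cxcl2* and *Il1b* among them, did not rise significantly with 10% IH. Its list of genes regulated with 10% IH nevertheless holds *Cxcl1*. The rewritten test called *Cxcl1*, *Cxcl2* and *Il1b*, so its 10% IH calls are not those of the study. Limma 3.58.1 in R 4.3.3 fitted 4 group means to all 8 arrays without donor, with adjustment over all probe sets. Both were tested on simulated data. A gene is described by its probe set of highest mean, and both probe sets of *Cxcl9* are given. Named are the 5 members, list genes that met the criterion against control (at most 4 a list) and the 5 genes most like *Cxcl1* and *Cxcl10*. Some further list genes and receptors were chosen after their values were seen. The members, lists and tests were chosen with earlier results of these data known. Promoters came from RefSeq (GRCr8), where all 5 members matched. Alternatives covered normalization, a filter, probe set choice, donor, the samples fitted and each array left out.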

Additional observations from a re-analysis of the deposited data

How the results depend on the processing

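No call changed direction. Of the values for single chemokines, 597 kept their direction and side of the threshold, 8 lost the threshold, 5 gained it and 26, all below the threshold before and after, changed sign (13 values, each counted by both tests). Of these, 11 changed when 1 array was left out, over which *Cxcl10* ran from -0.17 to 0.39 in 5% IH against control, from -0.30 to 0.26 in control against autologous and from -0.12 to 0.30 in 5% IH against autologous, *Cxcl16* from -0.0653 to 0.189 in 10% IH against control, and *Cxcl9* from -0.0149 to 0.198 in 5% IH against control, from -0.0325 to 0.171 in 10% IH against control and from -0.0841 to 0.129 in 5% against 10% IH. The other 2 were *Cxcl9* in 5% and 10% IH against autologous, which took the values 0.0832 and 0.0818 when its probe sets were averaged. The choice of test mattered most. With limma in place of the Rank Product, 0 members in place of 3 were called in 5% IH against control, 10% IH against control and 5% against 10% IH, and with the Rank Product in place of limma 3 in place of 0. The criterion permutes values within arrays, so it ranks ratios without an estimate of the spread of each gene. With the autologous arrays left out of the limma fit, chosen after seeing the data, 1 member passed in 5% IH against control, beside 0.00644% of all probe sets. With 1 array left out at a time, the members that met the criterion numbered 3 to 4 in 5% IH against control, 1 to 3 in 10% IH against control (1 without the BN2 array of 10% IH), 3 to 3 in 5% against 10% IH (2 higher, without *Cxcl2*, and *Cxcl10* lower in 2 of these fits), 3 to 4 in control against autologous (the fourth, *Cxcl9*, lower), 3 to 3 in 5% IH against autologous and 3 to 4 in 10% IH against autologous. *Cxcl10* in 10% IH against autologous (0.34) did not meet it with a 2-sided p. With donor as a replicate block, the adjusted p was 0.419 for *Cxcl1* and 0.157 for *Cxcl2* in 5% IH against control and 0.87 for *Cxcl1* in 10% IH against control, and no call of a member changed. With the donor numbers of the autologous arrays crossed, also added after seeing the data, 3 members passed against autologous plasma with each other plasma. The shares of all probe sets were 1.85% with control, 2.01% with 5% IH and 1.27% with 10% IH. Over all probe sets, limma passed 551 in control against autologous (289 without the BN1 and 223 without the BN2 control array), 609 in 5% IH against autologous (308 and 383 with the BN2 or the BN1 array of 5% IH left out), 389 in 10% IH against autologous (239 with the compared groups alone and 259 without the BN1 array of 10% IH), and, without the BN2 array of 10% IH, 46 in 10% IH against control and 57 in 5% against 10% IH in place of 0. The criterion was met by 964 probe sets in 5% IH against control (238 after the filter, 1939 to 2285 without an array) and 2157 in 10% IH against control (1332 and 2746 to 3420). In 5% against 10% IH it was 1967 (1159 after the filter, 2694 to 3324 without an array), and against autologous plasma 3253 for control, 3342 for 5% IH and 3213 for 10% IH (2090, 2150 and 1984 with a 2-sided p). A filter at the 40th percentile of mean level removed *Cxcl9* and *Cxcl10*, which then gave no value. The causes of these changes were not tested. Low levels of these genes, with no detection calls, limit what their ratios can show.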
